A study of Mus musculus with 18 samples.

Results

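The genes described here encode the linker histones (H1) and the core histones (H2A, H2B, H3 and H4). The members were chosen by their names alone, as every gene whose name begins with H1f, H2ac, H2bc, H3c or H4c followed by a number, which gave 69 of the 21899 genes listed. No measured value entered that choice, but the group was proposed with results of these same samples known, so its diet differences are a description of them and not independent support. They comprise 11 H1, 17 H2A, 17 H2B, 12 H3 and 12 H4 genes. Of these, 54 lie on chromosome 13, 10 on chromosome 3, 2 on chromosome 15, 2 on chromosome 6 and 1 on chromosome 11, and 62 have a single annotated exon.

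RNA from liver, epididymal white adipose tissue (eWAT) and quadriceps muscle of male wild-type C57BL/6 mice was sequenced, with 3 mice per diet and tissue and 18 libraries in all. The HSD group received chow with 8% NaCl and 0.9% saline as drinking water for 12 weeks, and the CON group received chow and tap water. All mice were 18 weeks old, none carried a transgene or deletion, and libraries of different tissues can come from the same mouse, as the mouse number in a library's name shows. The libraries were made from total RNA after removal of ribosomal RNA, without selection for poly(A) tails, so that histone transcripts with and without a tail could be counted.

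Core histones form the octamer around which DNA is wound, and a linker histone sits where the DNA enters and leaves it. Most core histone genes and several H1 genes are replication-dependent: they are transcribed in S phase, and their messages end in a short stem-loop instead of a poly(A) tail. The stem-loop is bound by SLBP, the stem-loop binding protein, and cut by the U7 snRNP. H1f0, by contrast, encodes the linker histone that accumulates in differentiated, resting cells and gives a polyadenylated message. H1f2 and some H2B genes are known to make both kinds of message.

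The stem-loops of the members on which the results turn are given here, where the annotated transcripts hold one. Capitals mark the paired stem of 6 bases on each side, and the 4 loop bases are in lower case. They were read 5′ to 3′ from the GENCODE M21 transcripts (mm10), of which each shows a site of 16 bases.
H1f2, H1f4, H2bc6, H3c4 and H3c15: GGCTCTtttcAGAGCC
H4c8 and H4c17: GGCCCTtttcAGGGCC
H4c9: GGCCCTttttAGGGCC
H4c1: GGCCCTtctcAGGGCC
H2bc3 and H3c3: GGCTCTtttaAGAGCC

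A stem-loop of this form was found in the annotated transcripts of 43 of the 69 members, namely 4 of the H1, 10 of the H2A, 9 of the H2B, 9 of the H3 and 11 of the H4 genes. The first sequence was the commonest and was held by 24 members. The annotated transcripts of H1f0, H2bc4 and H2bc21 held none.

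H1f2 and H1f4 are the linker histone genes that lay furthest below CON in eWAT of HSD mice, so the 250 bases before their RefSeq starts are given next to those of H1f0. They are RefSeq promoter sequences (GRCm38.p6) on the strand of the gene, at chr13:23738557-23738806 (plus strand) for H1f2, chr13:23622559-23622808 (minus strand) for H1f4 and chr15:79027962-79028211 (plus strand) for H1f0. Capitals mark exact matches to AAACACA, known as the H1 box of linker histone genes, to CCAAT and to TATAAA.
H1f2: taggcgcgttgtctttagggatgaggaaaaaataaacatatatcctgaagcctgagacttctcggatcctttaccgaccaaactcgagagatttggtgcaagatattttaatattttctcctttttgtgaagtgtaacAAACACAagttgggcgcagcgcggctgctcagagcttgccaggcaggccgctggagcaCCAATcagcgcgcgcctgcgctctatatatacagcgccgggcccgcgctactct
H1f4: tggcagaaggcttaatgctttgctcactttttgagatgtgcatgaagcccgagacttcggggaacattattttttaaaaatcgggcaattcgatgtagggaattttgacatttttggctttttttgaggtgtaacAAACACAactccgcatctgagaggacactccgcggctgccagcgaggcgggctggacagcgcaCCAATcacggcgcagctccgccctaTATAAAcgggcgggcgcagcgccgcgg
H1f0: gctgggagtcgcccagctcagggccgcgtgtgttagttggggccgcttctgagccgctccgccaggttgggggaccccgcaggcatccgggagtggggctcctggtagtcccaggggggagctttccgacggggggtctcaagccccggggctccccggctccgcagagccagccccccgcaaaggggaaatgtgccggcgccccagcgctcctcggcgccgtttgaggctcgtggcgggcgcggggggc

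AAACACA began 112 bases before the start of H1f2 and 115 before that of H1f4, and CCAAT began 54 and 52 bases before. TATAAA was found in the H1f4 window at 27 bases and not in that of H1f2. The H1f0 window held none of the letters searched. The RefSeq start of H1f0 lies upstream of its GENCODE start at chr15:79028450, so the bases directly before the latter are not in this window. Both strands were searched, in 63 windows of 62 members and in all 32851 windows. CCAAT was in 82.5% of the member windows and in 37.4% of all windows, and TATAAA in 54.0% and 13.6%. AAACACA was in 14.3% of the member windows and in 7.18% of all windows, and 5 of the 10 H1 windows held it. ATTTGCAT, the octamer, was in 20.6% of the member windows and in 1.74% of all windows; GGTCCTC was in 0 and 5.29%. These matches describe letters and not bound sites. H2bc4 had no window in the table.

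Depth ranged from 7628071 to 16637489 fragments per library, of which mitochondrially encoded genes took between 3.52 and 5.11% in eWAT, 11.3 and 16.5% in muscle and 15.4 and 60.8% in liver. The labelled tissues held their own markers: the summed FPKM (fragments scaled to exon length and library depth) of 8 hepatocyte genes was 12411 to 63913 in liver, that of 6 adipocyte genes 2598 to 7719 in eWAT and that of 6 skeletal muscle genes 54375 to 70394 in muscle. Liver CON replicate 2 (CON16L) also held muscle transcripts, with Acta1 (skeletal muscle actin) at 1994 FPKM and no more than 1.37 FPKM in the other liver libraries. Liver CON replicate 1 (CON14L) had the highest mitochondrial share and the lowest hepatocyte sum. eWAT HSD replicate 2 (HS3W) held transcripts of the epididymis, with Lcn8 at 5972 FPKM, and the lowest adipocyte sum of the 6 eWAT libraries. eWAT HSD replicates 1 (HS2W) and 2 held transcripts of male germ cells, with Tnp2 (transition protein of spermatids) at 181 and 63.4 FPKM and at most 8.0 FPKM in the other 4. eWAT CON replicate 1 (CON16W) stood apart in blood cell transcripts, whose 5 genes summed to 5667 FPKM there and to 243 to 744 FPKM in the other eWAT libraries.

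Only a few members carried most of the histone signal. The members took 77945 fragments in the 18 libraries, of which H1f2 had 34.5%, H1f0 24.7% and H2bc4 24.4%, together 83.5%. H4c9, H2bc21, H2bc6, H4c8 and H1f4 followed, with 2534 to 1110 fragments. Of the 69, 9 were above 0 in every library, 48 in some and 12 in none. The 12 were H2ac12, H2ac18, H2ac19, H2ac21, H2ac23, H2ac24, H2bc1, H2bc14, H2bc18, H3c13, H3c14 and H4c2. Counting 3 fragments as the upper limit that a count of 0 allows, their level in a library could still reach 0.0988 to 1.03 FPKM, depending on length and depth, for counting error alone.

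The members at 0 were mostly genes with near copies. A median of 91.3% of the 150-base stretches of their transcripts also occurred in another gene, and in 5 of the 12 all did, against a median of 22.3% in the 57 members with a fragment. H2bc14 was at 0 without a shared stretch. Reads that fit several genes can be lost or split in counting, so low values of H3c15 (59.4% shared) and H4c17 (85.8% shared) are uncertain, while H1f2, H2bc21 and H1f9 shared no stretch and H1f0 shared 0.735%. H1f4 shared 19.5% of its stretches with H2bc6 and Gm11398, which overlap it on the same strand, and H2bc4 shared 17.4% with 11 other H2B genes.

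Members also differed by how far their annotated transcript runs past the stem-loop. The 20 members annotated for more than 100 bases past it had a median of 133 fragments and took 44.2% of all member fragments, with H1f2 (840 bases past), H4c9 (330), H2bc6 (1861) and H1f4 (1153) leading. The 23 annotated for 100 bases or fewer had a median of 9 fragments and took 2.77%, of which H4c8, 46 bases past its stem-loop, had 1609 fragments. The 26 without a stem-loop had a median of 8 fragments but took 53.0%, through H1f0 and H2bc4. Some of them have short annotated transcripts, such as H4c12 (312 bases), H2bc13 (381) and H3c11 (411), which may end before a stem-loop. Its absence thus describes the annotation and not the gene. Longer exons collect more fragments at the same level, and the annotation may itself follow observed transcripts, so these are descriptions of counts and not of levels.

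**Figure D1:**
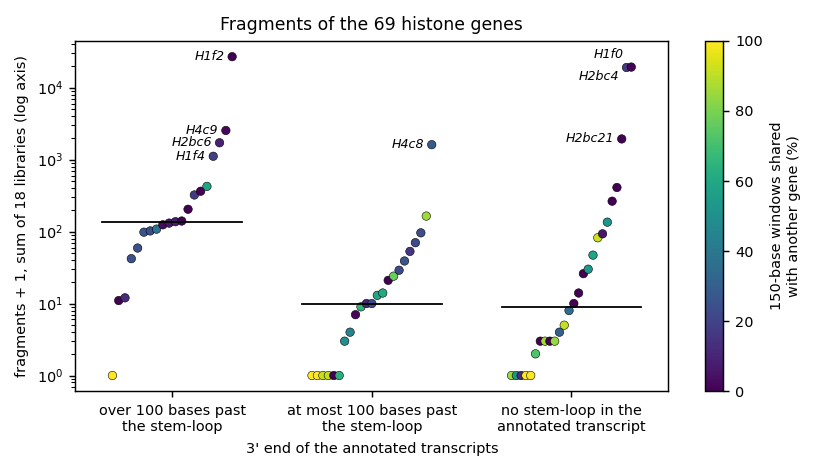
Fragments plus 1 of each of the 69 members, summed over 18 libraries, on a log axis, in 3 groups by the 3′ end of the annotated transcripts; each point is a gene, coloured by the percentage of its 150-base stretches found in another gene, and lines are group medians. H1f2 leads the genes annotated for more than 100 bases past the stem-loop, H4c8 those with 100 or fewer, and H1f0 and H2bc4 those without one.

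A mean of at least 0.5 FPKM was reached by 29 members, by 23 of them in eWAT, 18 in muscle and 11 in liver. They comprised 6 of the 11 H1, 2 of the 17 H2A (H2ac8 and H2ac10), 7 of the 17 H2B, 6 of the 12 H3 and 8 of the 12 H4 genes. Summed over members, H2A stayed between 0.137 and 4.37 FPKM per library while H2B ranged from 32.3 to 206 FPKM. The 2 members that led H2A were no higher than 1.22 FPKM (H2ac8) and 2.83 FPKM (H2ac10) in any library.

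**Figure D2:**
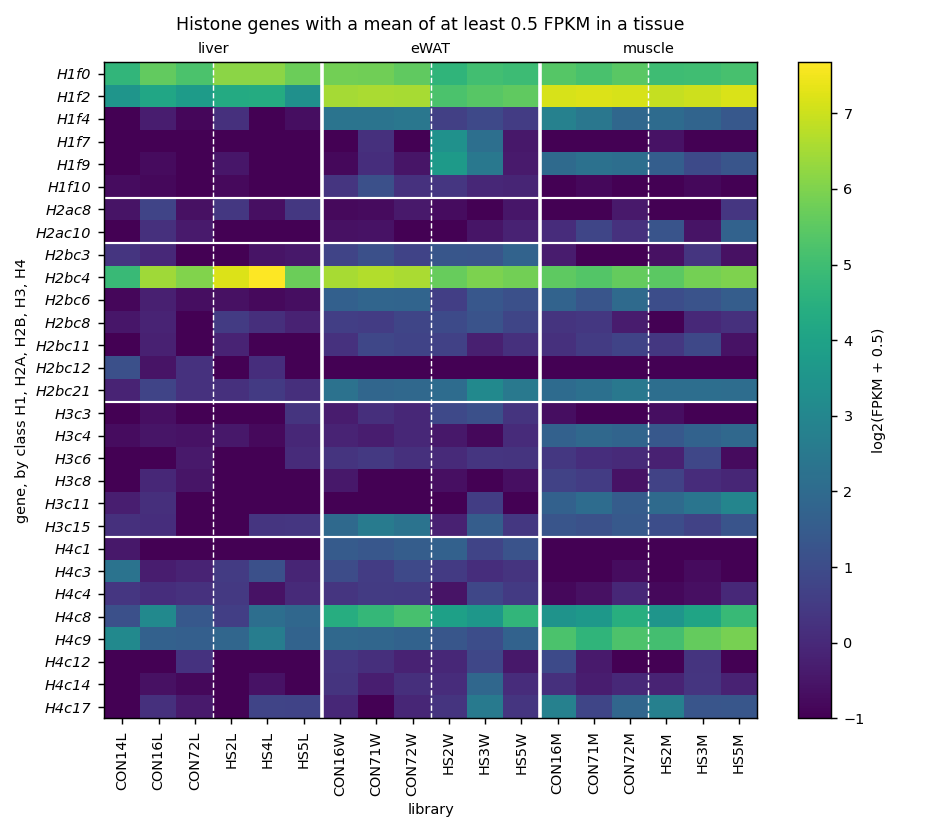
log2(FPKM + 0.5) of the 29 members with a mean of at least 0.5 FPKM in a tissue, one row per gene and one column per library; library names give the diet (CON or HS for HSD), the mouse number and the tissue (L liver, W eWAT, M muscle). H1f0, H1f2 and H2bc4 are high throughout, H1f4, H2bc6 and H3c15 stand out in eWAT CON and muscle, and H1f7 and H1f9 in HS2W and HS3W.

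In eWAT, the histone genes with the highest levels had lower values in HSD mice than in CON mice, although no single difference passed the test across all genes. H1f2 (ENSMUSG00000036181, formerly Hist1h1c, chr13:23738808-23740367 in mm10, plus strand, 1 exon) was at 89.9, 94.8 and 91.4 FPKM in CON replicates 1, 2 and 3 and at 37.1, 42.6 and 46.1 FPKM in HSD replicates 1, 2 and 3, the order used throughout. The groups lay far apart relative to their spread, with means of 92.0 ± 2.5 and 41.9 ± 4.5 FPKM (SD, n = 3 each), a 2.20-fold lower mean. The fitted log2 fold change was -1.13 with a standard error of 0.11, and limma's test gave an adjusted p of 0.083 over all 13740 genes tested, which did not pass the threshold of 0.05.

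H1f4 (ENSMUSG00000051627, formerly Hist1h1e, chr13:23620629-23622558, minus strand, 1 exon), a replication-dependent linker histone gene of the same cluster, had a larger difference. Its levels were 4.59, 4.58 and 4.95 FPKM in CON and 1.06, 1.39 and 0.950 FPKM in HSD, a log2 difference of -1.68 with a standard error of 0.14 and an adjusted p of 0.083 by limma. The mean was 4.15-fold lower. H1f0 (ENSMUSG00000096210, chr15:79028450-79030504, plus strand, 1 exon, with Gm49544 antisense to it) was at 55.7, 54.8 and 46.1 FPKM in CON and at 25.0, 33.0 and 30.6 FPKM in HSD, a log2 difference of -0.82 with an adjusted p of 0.121 by limma. For both genes the highest HSD library was below the lowest CON library. Summed over the 11 H1 genes, levels were 144 to 157 FPKM in CON and 78.8 to 87.1 FPKM in HSD.

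Among core histone genes the H2B gene H2bc4 (ENSMUSG00000018102, formerly Hist1h2bc, chr13:23684199-23692908, plus strand, 2 exons) had the highest level in eWAT. It was at 92.4, 102 and 94.3 FPKM in CON and at 49.6, 62.5 and 56.2 FPKM in HSD, a log2 difference of -0.78 with an adjusted p of 0.114 by limma. H2bc6, whose locus overlaps H1f4, was at 2.64, 3.03 and 2.97 FPKM in CON and 1.04, 2.08 and 1.68 FPKM in HSD. The groups of both H2B genes were again apart. H3c15 (ENSMUSG00000081058, chr3:96238108-96239127, minus strand), an H3 gene of the chromosome 3 cluster, was at 3.36, 5.56 and 4.48 FPKM in CON and at 0.359, 2.47 and 0.824 FPKM in HSD, a log2 difference of -1.70 with a standard error of 0.47 and an adjusted p of 0.193 by limma. H4c3 was the seventh member that was lower in every HSD library, with a log2 difference of -0.52. H4c8, the H4 gene with the highest level in eWAT, was at 20.7, 27.1 and 34.7 FPKM in CON and at 14.7, 11.6 and 25.7 FPKM in HSD, and its groups overlapped.

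Not every member was lower. H2bc3 was at 1.23, 1.69 and 1.18 FPKM in CON and at 2.02, 1.92 and 2.86 FPKM in HSD, and the test did not pass (adjusted p = 0.257 by limma). H3c3 had mean levels of 0.467 FPKM in CON and 1.27 FPKM in HSD (adjusted p = 0.264). H4c17 was above CON in each HSD library, with 5.46 FPKM in replicate 2 and 0.729 and 0.760 FPKM in the others. These 3 members have exons of 402 to 630 bases and had 52 to 163 fragments in all 18 libraries, and H4c17 shares most of its sequence with H4c18. The CON means of H3c3 and H4c17 were below 0.5 FPKM.

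Of the 69 members, 23 passed the filter of a mean of 0.5 FPKM in eWAT and were tested. limma called 0 of the 23 at an adjusted p under 0.05 and a fold of at least 2, and 0.0% of all genes tested. The study, which used DESeq2, has H1f2, H1f4, H4c8 and H1f9 in its own lists of differentially expressed genes in eWAT. At an unadjusted p under 0.05 there were 8 members, against 16.7% of all genes, of which 6 were lower and 2 higher, against 7.55% and 9.18%. limma-voom, a second test run on the recovered fragments, called 0 and gave 6. The shares over all genes by limma-voom are not given here for any tissue, so its counts of members cannot be set against them. The groups did not overlap for 7 members that were lower and 3 that were higher, where the shares over all genes tested were 12.4% and 16.2%. Of the higher ones, H3c3 and H4c17 passed the filter only through HSD, where they were high. The count of 3 is thus partly set by the filter. The median log2 difference of the tested members was -0.25, and that of all genes tested was 0.08. An exact permutation test of a single gene in 3 against 3 mice cannot go below 0.1. The p-values measure the spread between these samples of separate mice. In whole tissue, fewer cells that use a gene and less RNA per cell cannot be told apart.

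**Figure D3:**
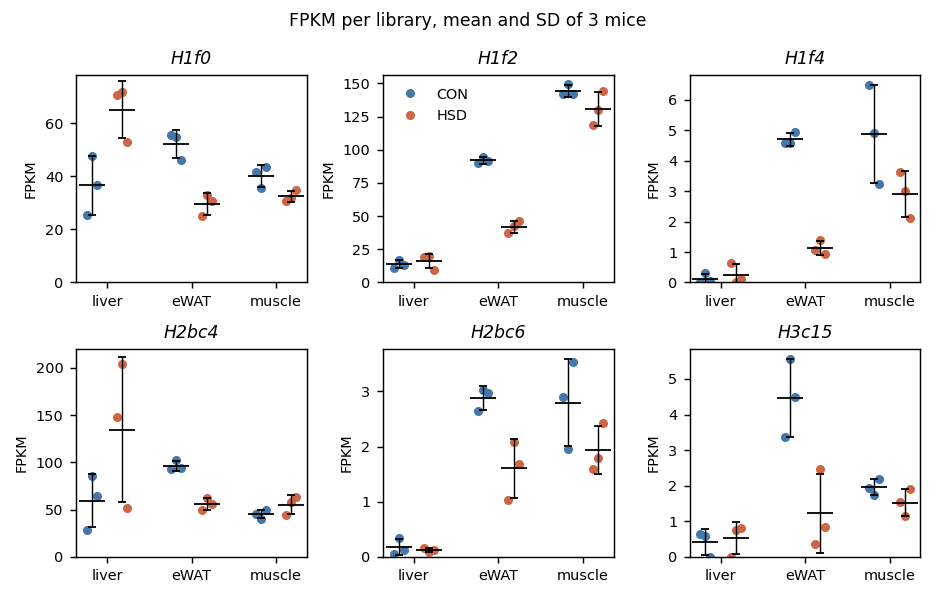
FPKM in each library of the 6 members with the largest differences among those lower in every eWAT HSD library (points), with the mean and SD of 3 mice (black), by tissue and diet on a linear axis that starts at 0. In eWAT the groups are apart by that choice, whereas H1f0 lies higher with HSD in liver and the groups of H2bc4 overlap there.

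The call in eWAT turned on a single library. Without eWAT HSD replicate 2, the library with epididymal transcripts, 3 members passed the test: H1f4 with a log2 difference of -1.79, H1f2 with -1.15 and H3c15 with -2.20, at adjusted p values of 0.0212 to 0.0227 by limma. The share of all genes called in that fit is not given here, so these calls cannot be read as particular to the members. Without CON16W, 0 members passed. Leaving out both libraries that hold germ cell transcripts, an exclusion chosen after the data had been seen, leaves 1 eWAT HSD library. That library is assumed to vary like the CON libraries. H1f2 and H1f4 then had log2 differences of -0.99 and -1.84. Over all 15 alternatives the log2 difference of H1f2 ran from -1.20 to -0.99 and its adjusted p from 0.0212 to 0.38, and that of H1f4 ran from -2.06 to -1.42.

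Other cell types differed between the same groups of eWAT libraries. The summed level of 10 macrophage genes was 593 to 883 FPKM in CON and 260 to 559 FPKM in HSD, and all 10 had a negative log2 difference, with a median of -0.80. The 6 adipocyte genes all had a negative log2 difference too, with a median of -0.58. The groups were apart for 3 of these adipocyte genes, all lower, against 12.4% of all genes. Their sums were 7155 to 7416 FPKM in CON and 7466, 2598 and 7719 FPKM in HSD. The 5 blood cell genes were likewise all negative, with a median of -1.26. Hepatocyte transcripts summed to 96.4 to 281 FPKM in CON and 5.0 to 13.8 FPKM in HSD, and muscle transcripts to 7.77 to 16.1 and 28.7 to 43.9 FPKM. Genes of S phase and proliferation, 20 in all and including Mki67 and Mcm2, summed to 54.6 to 61.9 FPKM in CON and 49.97 to 55.6 FPKM in HSD. limma called 0 of the 16 tested, and 4 had an unadjusted p under 0.05, against 16.7% of all genes. Of these 16, 11 had a negative log2 difference, with a median of -0.12. The groups were apart for 5 that were lower and 1 that was higher, against 12.4% and 16.2% of all genes. The part of these cell types in the histone values was not tested.

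H1f7 and H1f9 encode linker histones of the male germ line and followed the germ cell transcripts across the eWAT libraries. H1f7 was at 0, 0.656 and 0 FPKM in CON and at 9.97, 4.04 and 0.234 FPKM in HSD. H1f9 was at 0.0722, 0.611 and 0.209 FPKM in CON and at 12.6, 5.08 and 0.265 FPKM in HSD. The 12 germ cell genes summed to 13.4, 66.5 and 6.03 FPKM in CON and to 692, 341 and 48.0 FPKM in HSD, so that the same HSD replicates 1 and 2 were high in all 3 measures. Neither gene passed the test (adjusted p = 0.32 and 0.327 by limma). The other members known from germ cells were low in every library, with highest values of 0.641 FPKM for H1f6, 0.305 FPKM for H1f8 and 0.417 FPKM for H2ac1, and H2bc1 was at 0 in all 18.

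**Figure D4:**
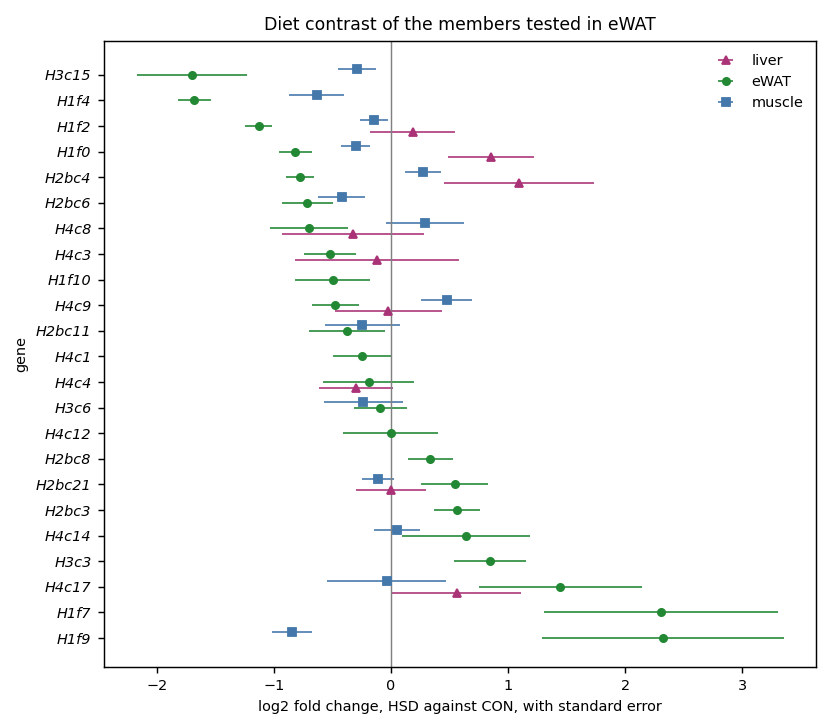
log2 fold change of HSD against CON with its standard error for the 23 members tested in eWAT (circles), and for those of them tested in liver (triangles) and muscle (squares). H3c15, H1f4, H1f2, H1f0, H2bc4 and H2bc6 lie below 0 in eWAT, H1f0 and H2bc4 lie above 0 in liver, and H1f9 and H1f7 have the widest errors.

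In liver, the members with high levels pointed the other way or overlapped. H1f0 was at 25.4, 47.5 and 36.9 FPKM in CON and at 70.7, 72.1 and 52.8 FPKM in HSD, a log2 difference of 0.86 with a standard error of 0.37 and an adjusted p of 0.764 by limma. It was the only one of 11 tested members whose groups did not overlap, where 8.62% of all 10317 genes tested were higher in each HSD library and 3.47% lower. Its levels with mitochondrially encoded fragments left out were 59.3 to 64.8 FPKM in CON and 84.4 to 95 FPKM in HSD, and the groups stayed apart. H2bc4 was at 28.8, 85.3 and 64.6 FPKM in CON and at 148, 204 and 51.9 FPKM in HSD, and its lowest value was in CON while HSD replicate 3 lay among the CON libraries. The study, which used DESeq2, has H2bc4 in its own list of differentially expressed genes in liver. H1f2 had a log2 difference of 0.18 and overlapping groups. limma called 0 of the 11 members and 0.0% of all genes; 0 members and 5.74% of genes had an unadjusted p under 0.05, and limma-voom called 0 and gave 1.

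Without CON14L and CON16L, which leaves 1 liver CON library that is assumed to vary like the HSD libraries, the log2 difference was 0.80 for H1f0 and 0.84 for H2bc4, and limma again called 0 members. The median over the members tested moved from 0.00027 to 0.50, with 8 positive and 1 negative of 9 in place of 6 and 5 of 11. The median of all genes tested was 0.13 with all liver libraries. That of the smaller fit is not given here, so the move cannot be read as particular to the members. Cell type markers also differed between the liver groups. Of the 8 hepatocyte genes 7 had a positive log2 difference, with a median of 0.88, and their sums were 12411 to 63913 FPKM in CON and 27313 to 62227 FPKM in HSD. Of the 8 macrophage genes tested 7 had a negative one, with a median of -0.75, and the list summed to 40.4 to 62.01 FPKM in CON and 21.6 to 34.6 FPKM in HSD. The 5 blood cell genes were all negative, with a median of -1.85. The part of these cell types in the liver values was not tested.

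In muscle, differences were small for the members with high levels. H1f2 was at 142, 150 and 142 FPKM in CON and at 119, 130 and 144 FPKM in HSD, and the groups overlapped. H1f0 was at 41.7, 35.7 and 43.6 FPKM in CON and at 30.9, 31.8 and 34.9 FPKM in HSD, a log2 difference of -0.30 with an adjusted p of 0.265 by limma. H1f9 had the largest difference, at 3.49, 4.20 and 3.93 FPKM in CON and 2.52, 1.43 and 1.96 FPKM in HSD, a log2 difference of -0.85 with a standard error of 0.17 and an adjusted p of 0.0588 by limma. Without muscle HSD replicate 1 it passed, with a log2 difference of -1.004 and an adjusted p of 0.0204. H1f9 lies within the span of Sgca, a sarcoglycan gene of muscle, on the opposite strand, and Sgca was at 90.5 to 108 FPKM in muscle; whether counting used the strand is not given in the sources used here, so reads of the 2 genes may not be separable.

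H1f9 and H1f0 were the only 2 of the 18 members tested in muscle whose groups did not overlap, both lower, against 15.6% of the 10834 genes tested, and 0 were higher, against 6.72%. limma called 0 members and 0.323% of all genes, and 4 members had an unadjusted p under 0.05, against 16.3% of all genes. With limma-voom, 0 members were called and again 4 had an unadjusted p under 0.05. H1f4 was at 6.49, 4.90 and 3.24 FPKM in CON and at 3.62, 2.99 and 2.13 FPKM in HSD. H4c9, the H4 gene with the highest level in muscle, was at 37.1, 25.3 and 37.6 FPKM in CON and at 33.7, 48.6 and 58.4 FPKM in HSD. H3c11 was at 2.75, 3.70 and 2.39 FPKM in CON and at 3.47, 4.68 and 7.26 FPKM in HSD. The groups of all 3 overlapped. The labels do not pair the mice. Set side by side by replicate number, H1f4 was lower with HSD in all 3 muscle comparisons and H3c11 higher in all 3. H4c9 was lower in 1 and higher in 2. With the replicate number as a block, 7 members instead of 4 had an unadjusted p under 0.05 and 0 were called, while calls over all genes went from 35 to 54. H1f9 then had an adjusted p of 0.0444 by limma, at a log2 difference of -0.85 that stays short of a fold of 2.

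Markers of other cell types differed between the muscle groups as well. Of the 9 macrophage genes tested 8 had a negative log2 difference, with a median of -0.61. By limma, 7 had an unadjusted p under 0.05 and 1, C1qa, was called, against 16.3% and 0.323% of all genes. The list summed to 58.3 to 93.1 FPKM in CON and 43.2 to 47.6 FPKM in HSD. The 5 blood cell genes were all negative, with a median of -1.07. Their part in the muscle values was not tested.

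The diet difference of H1f0 and H1f4 differed between eWAT and liver when that contrast itself was tested over all 18 libraries. The log2 difference in eWAT minus that in liver was -1.67 for H1f0, with a standard error of 0.32 and an adjusted p of 0.0237 by limma, and -1.90 for H1f4, with a standard error of 0.41 and an adjusted p of 0.0459. This fit assumes that a gene varies equally within the groups of all tissues. For H1f0 its standard error is smaller than that of the liver difference alone, so the spread in liver may be understated. These were 2 of 22 members tested, both lower, against 0.758% of all 13067 genes called and 0.689% called lower; 8 members and 13.7% of genes had an unadjusted p under 0.05. H1f2 had a difference of -1.31 that did not pass (adjusted p = 0.112), and H2bc4 had -1.87 (adjusted p = 0.198). Neither call held without liver libraries CON14L and CON16L, nor without eWAT libraries HS2W and HS3W. Each of these fits leaves 1 library in a group, so the loss cannot be told apart from that of having fewer libraries. Of the 18 fits that left out 1 library, H1f0 lost its call in 5, without liver HSD replicate 1 or 2, eWAT CON replicate 1 or 2 or eWAT HSD replicate 1 (adjusted p = 0.0628 to 0.084). H1f4 lost it in 12 and kept it without liver CON replicate 2, liver HSD replicate 2 or 3, eWAT HSD replicate 2 or 3 or muscle CON replicate 3, with adjusted p values of 0.0226 to 0.118 over the 18. With mitochondrially encoded genes left out, H1f0 kept its call (-1.31, adjusted p = 0.0165) and H1f4 did not (adjusted p = 0.088). H1f4 was at or below 0.646 FPKM in every liver library, so its contrast rests on eWAT. Between muscle and liver 0 members and 0.0612% of genes were called, with 3 members and 7.95% of genes at an unadjusted p under 0.05. Between eWAT and muscle limma called 0 members and 0.0% of genes, with 5 members and 8.0% of genes at an unadjusted p under 0.05. limma-voom was not run on these contrasts.

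**Figure D5:**
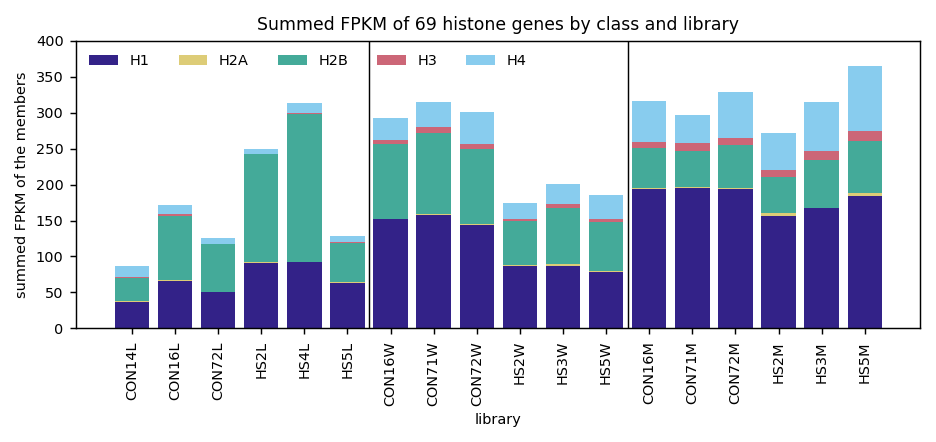
Summed FPKM of the 69 members in each of the 18 libraries, stacked by histone class; vertical lines separate liver, eWAT and muscle. H1 and H2B make up most of the sum, the eWAT HSD libraries (174 to 200 FPKM) lie below the eWAT CON libraries (292 to 315 FPKM), and liver libraries vary most.

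In CON mice the members differed between tissues, and H1f2 most visibly among those with high levels. It was at 11.01, 16.98 and 13.2 FPKM in liver, 89.9 to 94.8 FPKM in eWAT and 142 to 150 FPKM in muscle. H1f2 thus took 25.9 to 30.1% of the summed H1 level in liver, 59.4 to 63.5% in eWAT and 72.9 to 76.7% in muscle, while H1f0 took 69.4 to 73.5%, 32.0 to 36.8% and 18.3 to 22.5%. These shares are ratios within a library and do not depend on scaling between libraries. The H1f2 share was 42.6 to 58.5% in eWAT of HSD mice, where H1f7 and H1f9 added to the sum.

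Which tissue had the higher level depended on scaling for some members. FPKM of the 12637 genes tested in CON had a median log2 difference of 1.36 between eWAT and liver, 0.52 between muscle and liver and 0.93 between eWAT and muscle, and median-ratio scaling brought these to -0.03, 0.08 and 0.07. limma called 10 of 19 members between eWAT and liver, all higher in eWAT, against 69.4% of all genes (62.1% higher and 7.26% lower), and with median-ratio scaling 8, of which 5 were higher and 3 lower in eWAT. Between muscle and liver it called 13 members, 12 higher and 1 lower in muscle, against 50.1% of all genes (35.1% higher and 15.0% lower), and with median-ratio scaling 12 higher and 3 lower. Between eWAT and muscle it called 9 members, 4 higher and 5 lower in eWAT, against 54.9% of all genes (46.9% higher and 7.98% lower), and with median-ratio scaling 7, all lower. The members' share was thus below that of all genes between eWAT and liver, above it between muscle and liver and near it between eWAT and muscle. With 19 members these differences in share were not tested. Between eWAT and muscle the 5 members lower in eWAT included H1f9, whose muscle reads may not be separable from those of Sgca. Some members, H3c4 and H3c11 among them, passed the filter of 0.5 FPKM only through muscle, where they were high. Their muscle calls are thus partly set by the filter. H4c1 and H2bc3 passed it only through eWAT, so their calls as higher in eWAT are partly set by it too. Without CON14L and CON16L the calls were 10 higher between eWAT and liver, 13 higher and 0 lower between muscle and liver, and 4 higher and 5 lower between eWAT and muscle, of 21 members tested.

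H1f2 and H1f4 were higher in eWAT and in muscle than in liver under both scalings. The log2 difference between eWAT and liver was 2.72 for H1f2 and 3.09 for H1f4, and with median-ratio scaling 1.09 and 2.20. H1f4 had mean levels of 0.123 FPKM in liver, 4.71 FPKM in eWAT and 4.88 FPKM in muscle, and eWAT and muscle did not differ beyond their spread. H1f0 had mean levels of 36.6, 52.2 and 40.3 FPKM in liver, eWAT and muscle and was called in no pair of tissues as deposited, whereas with median-ratio scaling it was lower in eWAT than in liver, with a log2 difference of -1.10. H2bc4 had mean levels of 59.5, 96.3 and 45.0 FPKM, and its call between eWAT and muscle (log2 difference 1.09) was lost with median-ratio scaling (0.08).

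Individual H3 and H4 genes had their highest levels in different tissues. H4c9 was at 33.3 ± 6.9 FPKM (SD, n = 3) in muscle, 4.46 ± 3.2 FPKM in liver and 3.11 ± 0.27 FPKM in eWAT, and H4c8 at 14.5 ± 5.9, 4.0 ± 3.7 and 27.5 ± 7.0 FPKM. H3c4 had mean levels of 2.99 FPKM in muscle, 0.162 FPKM in liver and 0.399 FPKM in eWAT. H3c11 was at 2.39 to 3.70 FPKM in muscle and at 0 in all 3 eWAT CON libraries. Both H3 genes and H4c9 were called higher in muscle than in eWAT and in liver under both scalings. The means of both H3 genes in liver and eWAT CON were below 0.5 FPKM. They passed the filter only through muscle, so their calls are partly set by it. H4c1 went the other way, at 2.08 to 2.45 FPKM in eWAT CON, 0 in all 6 muscle libraries and above 0 in 1 liver library. It passed the filter only through eWAT, so its calls are partly set by the filter as well. H4c3 was called lower in muscle than in liver, but its liver values were 4.48, 0.315 and 0.400 FPKM, and the first belongs to CON14L. The call was lost in 10 alternatives, among them without CON14L, where the log2 difference went from -1.53 to -0.68, short of a fold of 2.

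Among genes that make or handle histones, none passed the test with diet in any tissue. Of all genes tested, limma called 0.0% in liver and in eWAT and 0.323% in muscle, so few calls could arise in these lists. The 14 genes for histone transcription and mRNA processing, among them Slbp and Npat (the coactivator of histone genes), summed to 121 to 125 FPKM in eWAT CON and 130 to 139 FPKM in eWAT HSD. limma called 0 of the 13 tested there, with 2 at an unadjusted p under 0.05, against 16.7% of all genes, and a median log2 difference of 0.07. In muscle 4 of 13 had an unadjusted p under 0.05 by limma, against 16.3% of all genes. The muscle groups were apart for 4 that were lower and 0 that were higher, against 15.6% and 6.72%. Of the 13, 6 were positive and 7 negative in muscle, with a median of -0.05. The 9 replacement variants, which are made outside S phase, included H3f3a and H3f3b, both encoding histone H3.3, at group means of 90.9 and 84.3 FPKM in eWAT CON and 90.4 and 94.0 FPKM in eWAT HSD. limma called 0 of the 9 variants tested in eWAT, 0 of 8 in liver and 0 of 7 in muscle, with 0 at an unadjusted p under 0.05 in each. Of 15 histone chaperones tested in eWAT it called 0, with 3 at an unadjusted p under 0.05, close to the 16.7% of all genes: Nasp and Atrx with positive log2 differences of 0.80 and 0.52, and Daxx with a negative one of -0.47. These 3 were singled out after their values were seen.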

How the data were processed

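Libraries were made by the authors with a stranded total RNA kit after ribosomal RNA removal and sequenced for 150 cycles; the submitters' processing notes name HISAT2 and HTSeq 0.9.1, and the study's methods mm10 and Cuffdiff. The deposited values are FPKM per gene, computed by the authors, and no value was rescaled in the main analysis. They corresponded to whole fragments at the GENCODE M21 exon length (tolerance 0.02) for all 69 members, which gave fragments and depth; intervals and limits cover counting error only. limma 3.58.1 (R 4.3.3) was fitted to log2(FPKM + 0.5), so that fold changes of low genes are understated, with a trended prior, in genes with a mean of at least 0.5 FPKM: per tissue for diet, over the CON libraries for tissues, and over all 18 libraries for diet by tissue. A call needed a Benjamini-Hochberg adjusted p under 0.05 over all genes tested and a fold of at least 2. Tables were made with Python 3.11.15 and the test was checked on simulated data.

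Values per library are given for members called, for the 5 largest differences with groups apart in each comparison, for members leading each class in a tissue, for members in the study's lists and for germ cell histones. Members and gene lists were chosen with earlier results of these data known. The labels do not pair CON with HSD mice. Deviations of same-numbered muscle libraries correlated at 0.383, 0.177 and 0.184, and in liver and eWAT some correlations were below 0.1. Muscle and eWAT libraries of a replicate number carry the same mouse numbers, so these correlations do not establish pairs. Alternatives were the pseudocount, the filter, median-ratio scaling, mitochondrially encoded genes left out, a replicate block, limma-voom, the libraries of the study's own table, and each library left out; leaving out the libraries with foreign transcripts was added after the data had been seen. No library was imputed.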

Additional observations from a re-analysis of the deposited data

Results flagged for a closer look

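H1f0 and H1f4 stand here because the test of the difference itself placed their diet differences apart between eWAT and liver. For H1f0 the log2 difference in eWAT minus that in liver was -1.67, and for H1f4 it was -1.90. That test assumed the same spread in all tissues. H1f0 was lower with HSD in all 3 eWAT libraries and higher in all 3 liver libraries than in any CON library of the same tissue, while H1f4 was at or below 0.646 FPKM in liver. Mitochondrial share in liver was 25.7 to 60.8% in CON and 15.4 to 44.4% in HSD, and its part in the difference was not tested beyond the values without those genes given above.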

How the results depend on the processing

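Of 728 values of named members under an alternative, 666 kept direction and side of the threshold, 58 no longer passed, 4 passed where they had not, and 0 reversed. Of the counts of members called, the libraries of the study's own table (15 of 18) gave 6 between eWAT and liver in the diet effect, 2 between muscle and liver and 3 between eWAT and muscle. Without mitochondrially encoded genes the first was 1. Without CON14L and CON16L, or without HS2W and HS3W, no call between eWAT and liver was kept, but each of these fits leaves 1 library in a group. Leaving out each library gave 0 to 4 members for the diet effect between eWAT and liver, 0 to 0 between muscle and liver, 0 to 2 between eWAT and muscle, 0 to 3 for diet in eWAT (3 without eWAT HSD replicate 2), 0 to 0 in liver and 0 to 1 in muscle (1 without muscle HSD replicate 1). In tissue comparisons it gave 9 to 12, 12 to 14 and 7 to 11. The shares of all genes called in the fits above are not given here, so a changed count cannot be read as particular to the members. With the replicate number as a block, 0 members were called in each tissue, and calls over all genes in muscle went from 35 to 54; the mouse number as a random block gave 10, 13 and 9 for tissues and 2, 0 and 0 for the diet effect between tissues, the same counts as without it. Depth limits the 12 members at 0 and those of few fragments.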

Other observations

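Some members of low level were high in the eWAT libraries that hold transcripts of other tissues. H2bc22 was at 2.18 FPKM in HS2W and 0.345 FPKM in HS3W and at 0 in the other 4 eWAT libraries. H4c14 was at 3.24 FPKM in HS3W and at 0.324 to 0.727 FPKM in the others, and H3c11 was at 0.989 FPKM in HS3W and at 0 in the others. H2bc21 was at 8.22 FPKM in HS3W and at 3.17 to 5.16 FPKM in the others. These members were singled out after their values were seen.

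The makeup of the H1 genes in liver also differed between diets. H1f2 took 25.9 to 30.1% of the summed H1 level in CON and 15.3 to 21.4% in HSD, and H1f0 took 69.4 to 73.5% and 77.5 to 83.3%, so that neither share overlapped between groups. These shares are ratios within a library and were not put to a test.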
